A study of Homo sapiens with 36 samples.

Results

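The core pluripotency factors were followed as 10 genes given by name: POU5F1, SOX2, NANOG, LIN28A, LIN28B, SALL4, PRDM14, ZFP42, DPPA4 and KLF4. Their symbols were matched to the gene identifiers of 3 expression tables, and all 10 were listed in every table, out of 18078 genes listed in any of the 3. RNA was sequenced from 36 libraries of 2 human embryonal carcinoma lines, NT2/D1-A4 and 2102EP-C1, each a cisplatin-resistant clone, in 3 experiments of 4 arms with 3 libraries per arm. In the GSK-J4 experiment on each line, the arms were an untreated control (labelled VC), 0.5 µM cisplatin for 6 h, 1 µM GSK-J4 for 3 days, and the combination, in which GSK-J4 came before cisplatin. In the knockdown experiment on 2102EP-C1, cells were transduced with the empty lentiviral vector pLKO.1 or with hairpins that target both KDM6A and KDM6B (sh6A+6B), and each was studied without cisplatin and with 0.5 µM cisplatin for 6 h. All 12 arms therefore carry acquired cisplatin resistance, every arm of the knockdown experiment also went through transduction and drug selection, and each line stands for 1 clone. Per the study's methods, RNA was taken the day after the cisplatin treatment, not at the end of its 6 h. The series describes its libraries as biological triplicates.

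Cisplatin crosslinks DNA and is the main drug against testicular germ cell tumours. KDM6A and KDM6B remove methyl groups from lysine 27 of histone H3, the mark laid down by Polycomb repressive complex 2, and GSK-J4 inhibits both enzymes. Embryonal carcinoma cells are the malignant counterpart of pluripotent cells of the early embryo and depend on the same regulators. POU5F1 (OCT4), SOX2 and NANOG are transcription factors that bind together at many enhancers, sustain the expression of each other and hold lineage genes silent. LIN28A and LIN28B are RNA-binding proteins that block maturation of the let-7 microRNAs. SALL4, PRDM14, ZFP42 (REX1) and KLF4 are zinc finger proteins that act in the same network, and DPPA4 is a chromatin protein of pluripotent cells that carries a SAP domain. The question the arms address is whether these factors differ between untreated and treated cells, and whether drug and knockdown move them alike.

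POU5F1 with SOX2 is known to bind the NANOG promoter in pluripotent cells, and POU factors read an octamer of DNA. The DNA just upstream of NANOG and SOX2 is shown because these members of the POU5F1, SOX2 and NANOG trio were lower after GSK-J4 in both lines. The windows hold the 250 bases before the RefSeq start of each gene (GRCh38.p14, chr12:7789152-7789401, plus strand, for NANOG and chr3:181711675-181711924, plus strand, for SOX2). Capitals mark the POU motif ATGCAAA, 7 letters of that octamer, in either orientation, and the SOX motif CATTGT, in either orientation.
NANOG: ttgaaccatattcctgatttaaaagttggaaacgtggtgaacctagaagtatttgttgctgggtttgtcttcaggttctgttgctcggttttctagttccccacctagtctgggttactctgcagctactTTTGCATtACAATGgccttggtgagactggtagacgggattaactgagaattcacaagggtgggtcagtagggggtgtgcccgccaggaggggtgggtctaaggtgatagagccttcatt
SOX2: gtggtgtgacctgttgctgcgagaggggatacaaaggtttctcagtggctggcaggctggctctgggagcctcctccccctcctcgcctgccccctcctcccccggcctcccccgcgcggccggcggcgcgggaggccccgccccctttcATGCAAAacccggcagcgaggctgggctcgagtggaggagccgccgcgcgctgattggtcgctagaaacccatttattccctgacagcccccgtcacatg
The NANOG window held the POU motif 120 bases and the SOX motif 112 bases before the start, and the motifs did not overlap. The SOX2 window held the POU motif 100 bases before the start and no SOX motif. Over 35116 promoter windows of the same length, 3.94% held the POU motif, 9.29% the SOX motif and 0.541% both. A match is a description of the letters only. Windows were found for 6 of the 10 members, and the LIN28B window that starts at chr6:104940715 held a SOX motif 140 bases before its start. The other LIN28B window and the windows of DPPA4, KLF4 and ZFP42 held neither motif as spelled here. Other parts of the octamer were not searched. DPPA4 was also lower after GSK-J4 in both lines. SALL4 and PRDM14, lower in both lines too, had no window. A link between motif and level was not tested.

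Values are log2 CPM, reads scaled to a common library size by the study within each table. The median depth was 35257098 reads per library (26842718 to 49521740) for NT2/D1-A4, 37237034 (30250275 to 53645086) for 2102EP-C1 with GSK-J4 and 88403858 (79382033 to 100872653) for the knockdown. The tables were normalized separately, so levels were tested within a table and only described between tables. Of 12 embryonal carcinoma markers 8 are members themselves, and the other 4 (L1TD1, DNMT3B, CRIPTO and TNFRSF8) were listed in each table. In untreated NT2/D1-A4, 2102EP-C1 and pLKO.1 cells, L1TD1 was at 10.64, 10.66 and 10.77 log2 CPM and DNMT3B at 10.75, 11.72 and 11.55. CRIPTO was at 3.53, 9.92 and 9.70, and TNFRSF8 (CD30) was the lowest of the 4 in each, at 0.17, 2.38 and 2.66. SOX17, GATA6, FOXA2 and CDX2, defining factors of endoderm and trophoblast, were not listed in any of the tables. Other genes of these lineages were, in the same order of tables: 7, 6 and 4 of 14 endoderm and yolk sac genes. Of 12 trophoblast genes, 6, 7 and 7 were listed. Among them GPC3 was at 5.27, 5.33 and 5.54 log2 CPM in untreated cells, and KRT18 at 9.22, 9.45 and 9.21. In bulk RNA, fewer cells of a type and less RNA per cell cannot be told apart.

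Untreated cells of both lines expressed the members in nearly the same order once levels were divided by transcript length. LIN28A stood highest, at 9.41 ± 0.02 log2 CPM per kb (SD, n = 3) in NT2/D1-A4, 9.45 ± 0.02 in 2102EP-C1 and 9.35 ± 0.01 in pLKO.1 cells. By log2 CPM without length its rank among all genes was 12 of 16431, 11 of 17035 and 13 of 16459. POU5F1 followed at 8.48, 8.91 and 8.87 log2 CPM per kb, and DPPA4 came next at 7.49, 8.24 and 8.16. NANOG lay lower in each table, at 6.00, 6.30 and 6.31 log2 CPM per kb, with SALL4 and then KLF4 beneath it. KLF4, a factor of the naive state and of many epithelia, was at 3.98, 4.3 and 4.37 log2 CPM per kb. Neighbours in these orders did not overlap in their libraries, except ZFP42 and LIN28B in NT2/D1-A4 and PRDM14 and LIN28B in pLKO.1 cells.

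**Figure D1:**
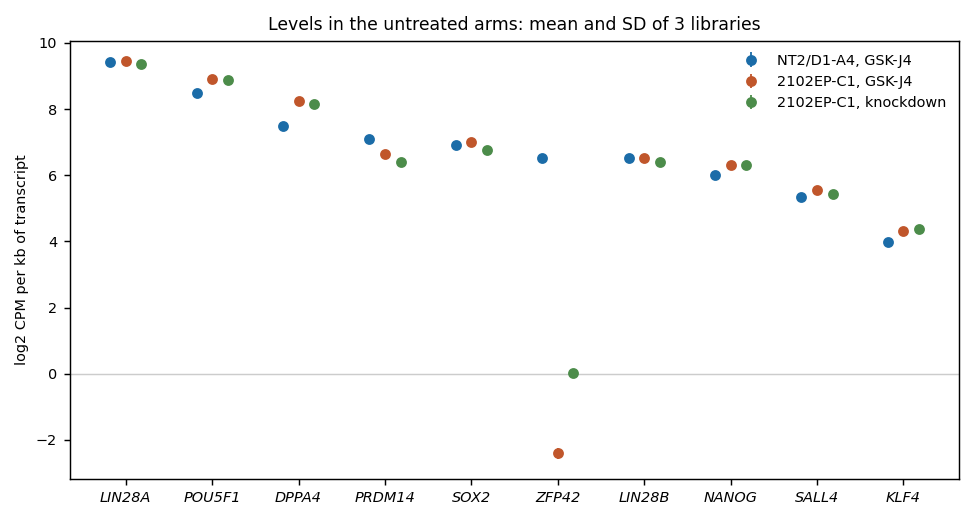
Levels of the 10 factors in untreated cells, as log2 CPM per kb of transcript on the vertical axis, with points for the mean and bars for the SD of 3 libraries in each of the 3 experiments. The column of ZFP42 spreads from 6.52 in NT2/D1-A4 to 0.01 in pLKO.1 cells and -2.41 in 2102EP-C1.

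ZFP42 (chr4:187995771-188005046, 4 exons), a zinc finger gene long used as a marker of undifferentiated cells, was the member that set the lines apart. In NT2/D1-A4 its untreated libraries read 7.90, 7.94 and 7.93 log2 CPM, from 7273 to 10416 reads each. In 2102EP-C1 they read -1.14, -1.05 and -0.82 log2 CPM, from 13, 16 and 26 reads. The difference of means was 8.93 on the log2 scale, a 486-fold higher level in NT2/D1-A4, and no other of the 15663 genes shared by these tables stood as far above its 2102EP-C1 level or below it. Of the shared genes, 17.0% differed by more than 2-fold. The pLKO.1 cells, of the same 2102EP-C1 line, held ZFP42 at 1.43, 1.39 and 1.43 log2 CPM, from 229 to 255 reads. That was 5.35-fold above untreated 2102EP-C1, a gap that 30 of 16104 shared genes matched or passed, while 2.19% of them differed by more than 2-fold. Since the lines and the 2102EP-C1 experiments were sequenced and normalized as separate tables, line, vector and table cannot be told apart.

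The other 9 members differed between untreated NT2/D1-A4 and 2102EP-C1 by 0.75 or less on the log2 scale. DPPA4 was at 8.97 log2 CPM against 9.72, POU5F1 at 8.97 against 9.41, KLF4 at 5.54 against 5.86 and NANOG at 8.37 against 8.67. PRDM14 ran the other way, at 8.28 in NT2/D1-A4 against 7.83 in 2102EP-C1. LIN28A (11.40 and 11.44) and LIN28B (8.95 and 8.96) overlapped between the lines. The other members did not, as was so for 77.9% of the 15663 genes shared by these tables.

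Most members were slightly lower with GSK-J4 alone in both lines. A gene was called changed when it passed a 1.3-fold limit (0.38 on the log2 scale) together with an adjusted p under 0.05 in limma, and a gene past the adjusted p alone is described here as higher or lower. Whether the libraries of arms overlapped is given as a description only. The share of all genes without overlap is not given for comparisons within a table, so a lack of overlap adds no support there. In NT2/D1-A4, 1 of 10 members was called, PRDM14, against 20.3% of all genes tested, while 8 passed the adjusted p alone, against 48.3% of all genes, 2 of them higher (24.5% of all genes) and 6 lower (23.8%). In 2102EP-C1, none was called by limma, with or without voom weights on the read counts, against 10.9% of all genes, while 8 had an unadjusted p under 0.05 and 7 passed the adjusted p, against 35.2%, 1 of them higher (19.2%) and 6 lower (16.0%). SOX2, NANOG, SALL4, PRDM14 and DPPA4 made up the 5 members lower in both lines, in comparisons that share no library. The members' median log2 difference was -0.17 in NT2/D1-A4 and -0.16 in 2102EP-C1, and that of all genes was 0.0084 and -0.0017. The 95% interval lay inside the 1.3-fold limit for 9 of 10 members in each line, against 45.0% and 54.5% of all genes, which include many with fewer reads.

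**Figure D2:**
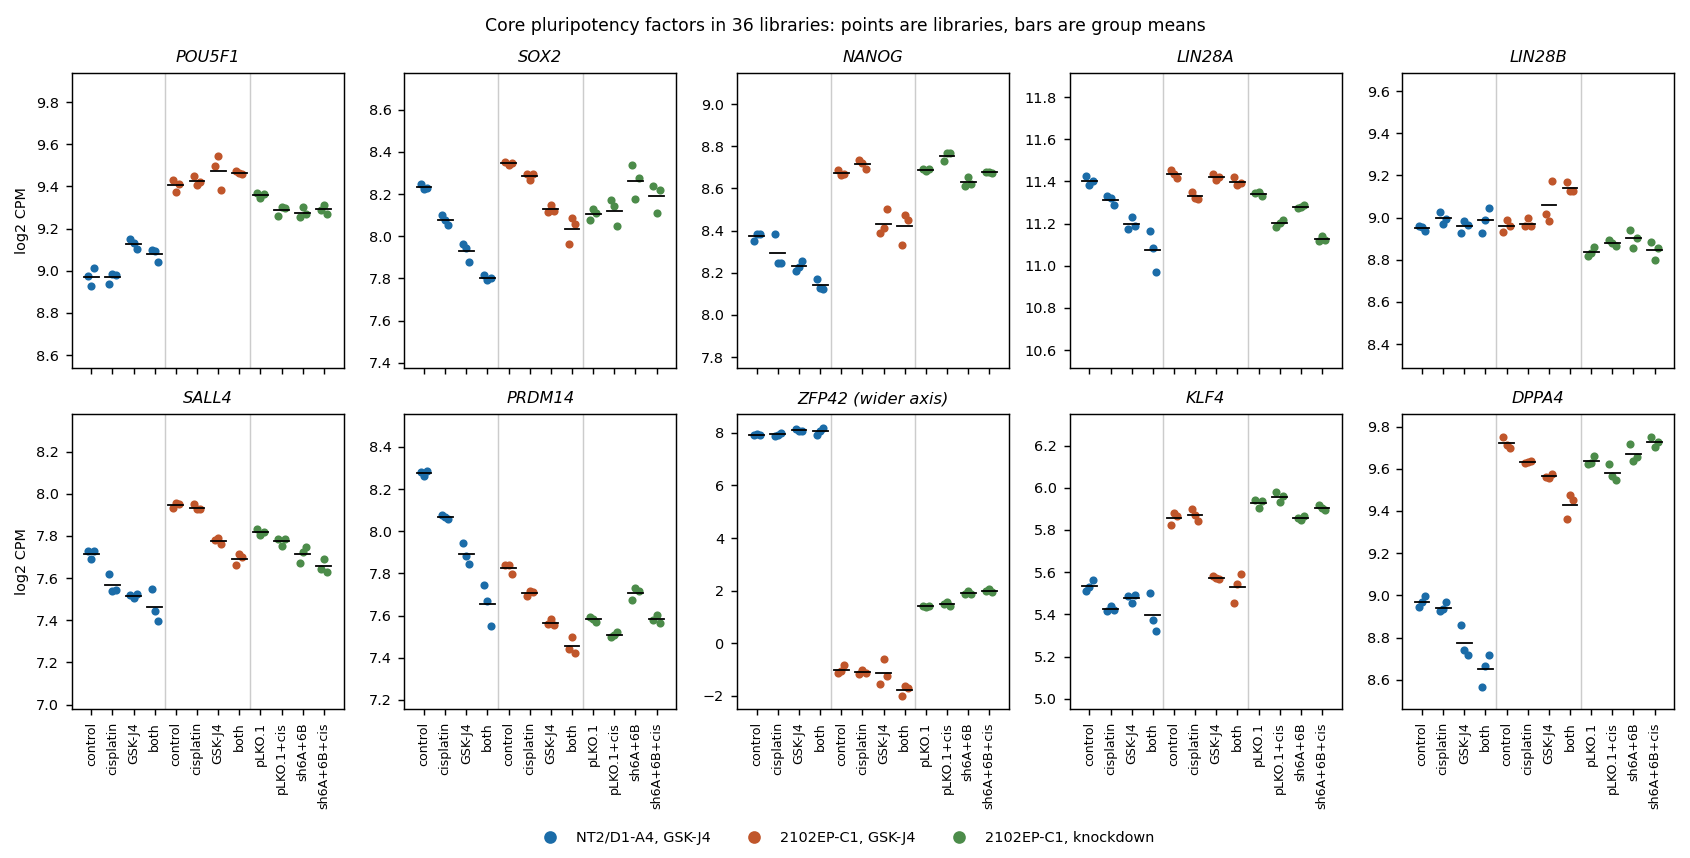
Log2 CPM of each factor in all 36 libraries, 1 panel per gene, with arms along the horizontal axis, points for libraries and bars for group means. Panels span the same range except ZFP42; SOX2, PRDM14, SALL4 and DPPA4 sit lower in the GSK-J4 and combination arms of both lines, and POU5F1 does not.

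Within the core trio, SOX2 and NANOG were lower after GSK-J4 and POU5F1 was not. SOX2 (chr3:181711925-181714436, a single exon) read 8.25, 8.22 and 8.23 log2 CPM in untreated NT2/D1-A4 libraries and 7.96, 7.94 and 7.88 with GSK-J4. The groups did not overlap, and the difference was -0.30 ± 0.03 (SE; limma adjusted p = 3.2e-07), 19.0% lower. In 2102EP-C1 SOX2 read 8.35, 8.34 and 8.35 untreated and 8.12, 8.15 and 8.12 with GSK-J4, again without overlap, a difference of -0.22 ± 0.03 (limma adjusted p = 4.5e-06). SOX2 lies within the long noncoding gene SOX2-OT on the same strand, so reads of that transcript over the exon could not be separated from its own.

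NANOG (chr12:7787794-7799146 in GENCODE, with a RefSeq start at 7789402) showed the same sign in both lines. Its untreated NT2/D1-A4 libraries read 8.35, 8.38 and 8.38 log2 CPM, and the GSK-J4 libraries 8.21, 8.23 and 8.25, a difference of -0.14 ± 0.04 (limma adjusted p = 0.0037). In 2102EP-C1 they read 8.69, 8.66 and 8.67 untreated and 8.39, 8.41 and 8.50 with GSK-J4, a difference of -0.24 ± 0.03 (limma adjusted p = 5.3e-06). All treated libraries lay below all untreated ones in each line. NANOGP8, a near-identical retrocopy, held 19.4% to 23.6% as many reads as NANOG across the tables, so the split of reads between them is uncertain. With the reads of both summed, an alternative added after the data were seen, the differences were -0.13 and -0.25.

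POU5F1 (chr6:31164337-31180731, minus strand) went the other way in NT2/D1-A4. It read 8.97, 8.93 and 9.02 log2 CPM untreated and 9.15, 9.13 and 9.10 with GSK-J4, 11.4% higher (0.16 ± 0.03, limma adjusted p = 7.4e-04) and without overlap. In 2102EP-C1 it read 9.43, 9.37 and 9.41 untreated and 9.50, 9.54 and 9.38 with GSK-J4. There the groups overlapped, and the difference of 0.07 had a 95% interval of 0.0025 to 0.14 (limma adjusted p = 0.10). In GENCODE, TCF19 overlaps the gene on the opposite strand and PSORS1C3 on the same strand. The RefSeq gene is shorter, with its end at 31170682, and overlap with it was not examined.

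Among the zinc finger members PRDM14, a repressor of lineage genes encoded on chromosome 8, showed the largest decrease in NT2/D1-A4. It read 8.28, 8.26 and 8.29 log2 CPM untreated and 7.95, 7.88 and 7.84 with GSK-J4. It fell by 0.39 on the log2 scale, to 23.4% below control (SE 0.04, limma adjusted p = 4.3e-07), with no overlap. The fall lies close to the limit: without the third GSK-J4 library it was 0.36 on the log2 scale, and with library size scaling alone 0.34, and neither passed 1.3-fold. In 2102EP-C1 PRDM14 read 7.84, 7.84 and 7.80 untreated and 7.56, 7.58 and 7.56 with GSK-J4, 16.5% lower (-0.26 ± 0.03, limma adjusted p = 1.7e-07) and below the fold limit.

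SALL4, a factor needed for self-renewal, was 13% lower in NT2/D1-A4 (limma adjusted p = 2.6e-04) and 11.1% lower in 2102EP-C1 (limma adjusted p = 4.3e-05). KLF4 differed by -0.06 in NT2/D1-A4, with a 95% interval of -0.15 to 0.04. In 2102EP-C1 it read 5.82, 5.88 and 5.86 log2 CPM untreated and 5.58, 5.57 and 5.57 with GSK-J4, 17.8% lower (limma adjusted p = 3.7e-06) and without overlap. ZFP42 was 12.3% higher with GSK-J4 in NT2/D1-A4 (0.17 ± 0.05, limma adjusted p = 0.010), from 7.92 to 8.09 log2 CPM. In 2102EP-C1, where 8 to 26 reads stood behind each library of these arms, its interval ran from -0.72 to 0.45 and no difference was detectable at this depth.

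The LIN28 pair and DPPA4 completed the set. LIN28A was 13.4% lower in NT2/D1-A4 (limma adjusted p = 4.1e-04), where its libraries read 11.43, 11.38 and 11.40 log2 CPM untreated and 11.17, 11.23 and 11.19 with GSK-J4. In 2102EP-C1 it differed by -0.02, with a 95% interval of -0.07 to 0.04. LIN28B differed by 0.01 in NT2/D1-A4 (interval -0.07 to 0.08) and was 7.07% higher in 2102EP-C1 (limma adjusted p = 0.034), where the groups overlapped and leaving out the third GSK-J4 library ended it (0.23, range 0.0054 to 0.23). DPPA4 was 12.7% lower in NT2/D1-A4 (limma adjusted p = 7.1e-04) and 10.4% lower in 2102EP-C1 (limma adjusted p = 1.6e-04).

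The same comparison among cells that all received cisplatin used other libraries. In NT2/D1-A4, 1 of 10 members was called against 20.7% of all genes, and 8 passed the adjusted p, against 48.4%, 2 higher (24.1%) and 6 lower (24.2%). PRDM14 read 8.08, 8.07 and 8.06 log2 CPM with cisplatin and 7.75, 7.67 and 7.55 with the combination, and fell by 0.41 on the log2 scale (limma adjusted p = 2.0e-07). Without the third combination library it was 0.36 lower on the log2 scale, under the limit. The 8 members past the adjusted p were those found without cisplatin, with the same signs. ZFP42 was 0.13 higher (limma adjusted p = 0.043), and without the third combination library it no longer passed (0.23, range over alternatives 3.7e-04 to 0.23).

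In 2102EP-C1, 1 of 10 members was called among cisplatin-treated cells against 19.3% of all genes, and 9 passed the adjusted p, against 49.4%, 2 higher (25.5%) and 7 lower (23.9%). The called member was ZFP42, which read -1.17, -1.0 and -1.12 log2 CPM with cisplatin and -2.00, -1.62 and -1.70 with the combination. It fell by 0.68 on the log2 scale (SE 0.28, limma adjusted p = 0.049), from 14 to 16 reads per library to 6 to 10. The call rested on few reads, and leaving out any 1 of 9 of the 12 libraries ended it, with an adjusted p of 0.16 without the first combination library, and so did fitting only the libraries compared, at 0.052 (range over all alternatives 0.040 to 0.16). SOX2 was 15.9% lower, NANOG 18.5%, SALL4 15.4%, PRDM14 16.0%, KLF4 21.0% and DPPA4 13%. As a description only, all combination libraries lay below all cisplatin libraries in each of these genes. LIN28B was 12.5% higher (limma adjusted p = 3.0e-04) and LIN28A 4.94% higher (limma adjusted p = 0.036, range over alternatives 0.0057 to 0.12, the highest without the third cisplatin library). LIN28A was therefore lower with GSK-J4 in NT2/D1-A4 and higher in 2102EP-C1 among cisplatin-treated cells, a difference between tables that was not tested.

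**Figure D3:**
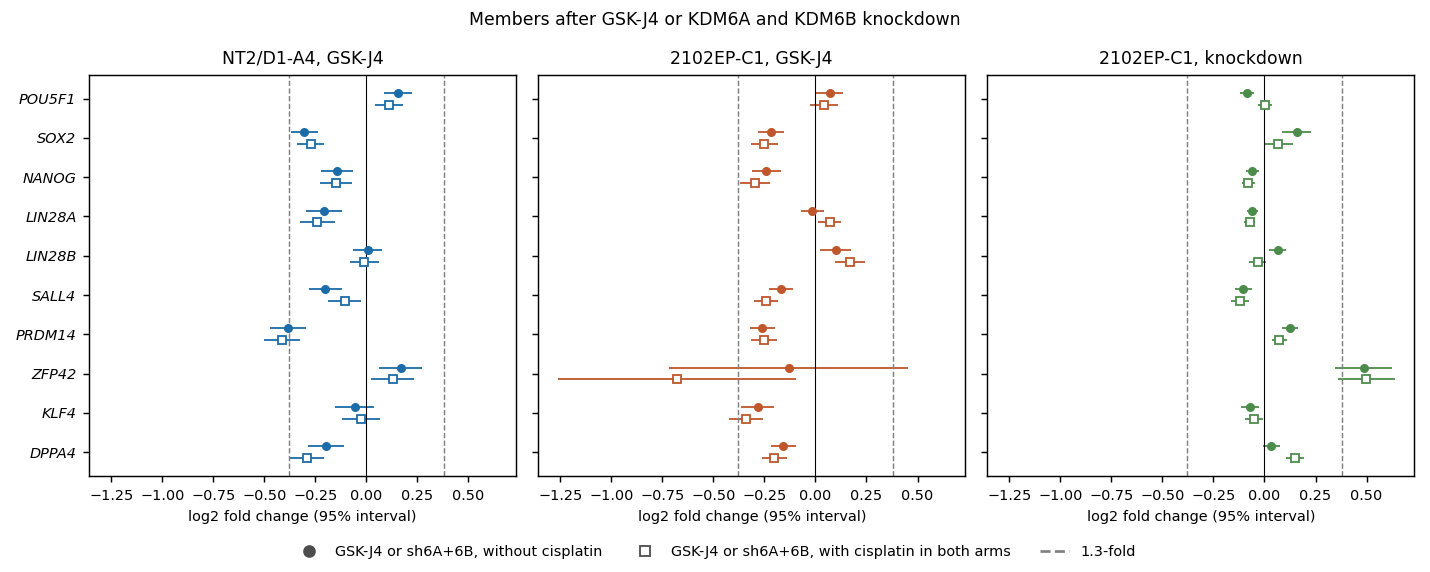
Log2 fold changes with 95% intervals for each factor after GSK-J4 or sh6A+6B, without cisplatin (filled circles) and among cisplatin-treated cells (open squares), in the 3 experiments, with dashed lines at 1.3-fold. SOX2, NANOG, SALL4, PRDM14 and DPPA4 lie left of 0 in both GSK-J4 panels, and ZFP42 lies right of the limit in the knockdown panel.

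Knockdown of the demethylases was first checked on its targets. KDM6A lay between 7.15 and 7.17 log2 CPM in the pLKO.1 libraries and between 6.09 and 6.20 in the sh6A+6B libraries, and KDM6B between 4.61 and 4.66 against 3.51 and 3.75. With cisplatin, KDM6A lay between 6.27 and 6.38 and KDM6B between 3.38 and 3.54 in the sh6A+6B libraries. Both targets fell by 1.01 on the log2 scale without cisplatin (limma adjusted p = 2.1e-18 and 1.8e-14). In the GSK-J4 experiments KDM6B rose, by 0.88 in NT2/D1-A4 (limma adjusted p = 1.2e-09) and 0.81 in 2102EP-C1 (limma adjusted p = 2.3e-10).

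ZFP42 was the only one of the 10 members called after sh6A+6B without cisplatin, against 12.1% of all genes, and it rose. Its libraries read 1.43, 1.39 and 1.43 log2 CPM in pLKO.1 cells and 1.88, 1.97 and 1.86 with sh6A+6B, 40.1% higher (0.49 ± 0.07, limma adjusted p = 1.9e-06). Reads went from 229 to 255 per library to 301 to 327, and the groups did not overlap. Among cisplatin-treated cells ZFP42 was again the only member called, against 15.2% of all genes, at 1.5, 1.56 and 1.43 in pLKO.1 cells and 2.00, 2.05 and 1.95 with sh6A+6B (0.50 ± 0.07, limma adjusted p = 7.9e-07). Its level stayed far below the 7.90 to 7.94 of untreated NT2/D1-A4, as a description across tables. Both calls held with each library left out in turn.

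The other members differed by 0.16 or less on the log2 scale after sh6A+6B. At the depth of this experiment, above that of the others, 9 of 10 members passed the adjusted p without cisplatin, against 52.8% of all genes, 4 higher (25.6%) and 5 lower (27.2%). The members' median was -0.013 on the log2 scale and that of all genes -0.0047. LIN28B, among those higher, did not pass without the first sh6A+6B library (limma adjusted p = 0.087). SOX2 read 8.08, 8.13 and 8.11 log2 CPM in pLKO.1 cells and 8.34, 8.18 and 8.28 with sh6A+6B, 11.6% higher (limma adjusted p = 4.4e-04). PRDM14 read 7.59, 7.59 and 7.57 in pLKO.1 cells and 7.67, 7.73 and 7.71 with sh6A+6B, 9.0% higher (limma adjusted p = 4.2e-06). In both genes every sh6A+6B library lay above every pLKO.1 library. POU5F1 was 5.64% lower, SALL4 6.96%, KLF4 4.78%, LIN28A 4.12% and NANOG 4.05%, also without overlap, as a description. Among cisplatin-treated cells 6 members passed, against 61.6% of all genes, 3 higher (30.9%) and 3 lower (30.7%). PRDM14 was then 5.13% higher (limma adjusted p = 0.0015), DPPA4 10.9% higher (limma adjusted p = 8.3e-07), and SOX2 4.83% higher with overlapping groups (limma adjusted p = 0.090).

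Inhibitor and knockdown in 2102EP-C1, set side by side, gave opposite signs for SOX2 (-0.22 with GSK-J4, 0.16 with sh6A+6B) and PRDM14 (-0.26 and 0.12). The signs were shared for NANOG (-0.24 and -0.06), SALL4 (-0.17 and -0.10) and KLF4 (-0.28 and -0.07), all lower, and for LIN28B (0.10 and 0.06), higher. Control cells, duration and table differ between these experiments, so the difference was not tested. KDM6B also stood at opposite ends, higher after GSK-J4 and lower after sh6A+6B.

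With cisplatin alone, the estimated difference of each member was under 1.3-fold, while the 95% interval of ZFP42 in 2102EP-C1 ran past the limit on both sides, from -0.68 to 0.49 on the log2 scale. None of the 10 was called by limma, with or without voom weights, in NT2/D1-A4, 2102EP-C1 or pLKO.1 cells, against 2.45%, 1.07% and 3.0% of all genes, while 6, 3 and 6 members had an unadjusted p under 0.05. By adjusted p, 3 members were lower in NT2/D1-A4, where 9.43% of all genes passed and 3.58% were lower, and 2 in 2102EP-C1, where 4.08% passed and 1.02% were lower. In pLKO.1 cells 4 were lower and 1 higher, against 18.2% and 17.9% of all genes (36.1% together). PRDM14 was lower in all 3 experiments, with libraries at 8.08, 8.07 and 8.06 log2 CPM after cisplatin in NT2/D1-A4 against 8.28, 8.26 and 8.29 before it. The differences were -0.21 ± 0.04 (limma adjusted p = 0.0039), -0.12 ± 0.03 (limma adjusted p = 0.020) and -0.07 ± 0.02 (limma adjusted p = 0.0028), and no groups overlapped. In 2102EP-C1, 0 members passed without the first or the second untreated library or without the second or the third cisplatin library, and 1 without the first cisplatin library. The PRDM14 difference there did not pass without the first untreated library (limma adjusted p = 0.11, range over alternatives 2.3e-04 to 0.11). SOX2 (-0.16, limma adjusted p = 0.0050) and SALL4 (-0.15, limma adjusted p = 0.019) were lower in NT2/D1-A4. LIN28A was lower in 2102EP-C1 (-0.11, limma adjusted p = 0.020) and pLKO.1 cells (-0.14, limma adjusted p = 1.9e-08), where it read 11.34, 11.35 and 11.33 log2 CPM before and 11.19, 11.20 and 11.22 after cisplatin. NANOG was the member that was higher in pLKO.1 cells (0.07, limma adjusted p = 0.0018). Over the alternatives the limma adjusted p reached 0.088 for SALL4 in NT2/D1-A4 (without the second cisplatin library) and 0.14 for LIN28A in 2102EP-C1 (without the first untreated library).

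With GSK-J4 or sh6A+6B already present, limma called none of the members for cisplatin, with or without voom weights, against 0.377% of all genes in NT2/D1-A4, 2.22% in 2102EP-C1 and 3.52% in sh6A+6B cells, while 5, 6 and 8 had an unadjusted p under 0.05. By adjusted p, 1, 4 and 6 members passed, against 1.26%, 15.7% and 44.8% of all genes. Over all alternatives these counts ran from 0 to 3, 1 to 5 and 2 to 7. In NT2/D1-A4, 0 passed without the first GSK-J4 or the second combination library, 2 without the third combination library and 3 without the first. In 2102EP-C1, 1 passed without the second GSK-J4 library and 2 without any 1 of 9 others, and in sh6A+6B cells 2 passed without the third sh6A+6B library. PRDM14 was the single member in NT2/D1-A4 (-0.24, limma adjusted p = 0.0091). It was also lower in 2102EP-C1 (-0.11, limma adjusted p = 0.013) and sh6A+6B cells (-0.13, limma adjusted p = 4.9e-06). In 2102EP-C1, DPPA4 (-0.13, limma adjusted p = 0.0031), SOX2 (-0.09, limma adjusted p = 0.046) and SALL4 (-0.09, limma adjusted p = 0.043) were lower as well. Over the alternatives their limma adjusted p values reached 0.29 for SOX2 (without the first combination library), 0.18 for SALL4 and 0.087 for PRDM14 (both with only the libraries compared), and PRDM14 in NT2/D1-A4 reached 0.11 in that fit. LIN28A was lower in sh6A+6B cells by 0.15 (limma adjusted p = 2.1e-09), close to its difference in pLKO.1 cells.

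**Figure D4:**
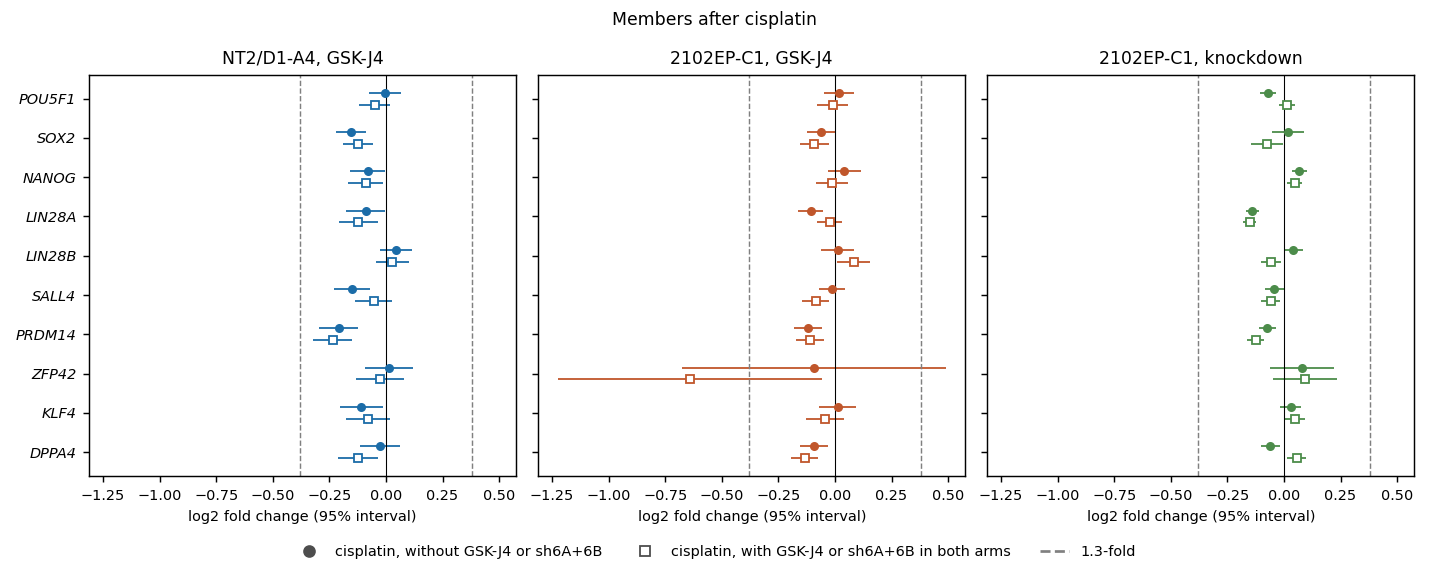
Log2 fold changes with 95% intervals for each factor after cisplatin, without (filled circles) and with (open squares) GSK-J4 or sh6A+6B in both arms, with dashed lines at 1.3-fold. The PRDM14 points lie left of 0 in all 3 panels, and all intervals lie inside the limit except those of ZFP42 in 2102EP-C1.

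A test of the interaction asked whether cisplatin and pretreatment together differed from the sum of their separate effects. No member was called in any experiment by limma, with or without voom weights, against 0.0426%, 0.857% and 3.77% of all genes, and 0, 1 and 3 members had an unadjusted p under 0.05. In the knockdown experiment 3 members passed the adjusted p, against 35.1% of all genes: DPPA4 (0.12 ± 0.03, limma adjusted p = 0.0024), POU5F1 (0.09 ± 0.02, limma adjusted p = 0.0058) and LIN28B (-0.10 ± 0.03, limma adjusted p = 0.011). DPPA4 read 9.62, 9.57 and 9.55 log2 CPM in pLKO.1 cells with cisplatin and 9.75, 9.70 and 9.73 in sh6A+6B cells with cisplatin, while the arms without cisplatin overlapped. As a description, with no test, PRDM14 in the combination arm was 35% below the untreated arm in NT2/D1-A4 and 22.7% below it in 2102EP-C1, and SOX2 was 25.7% and 19.3% below. In the knockdown experiment the sh6A+6B cells with cisplatin stood 49.4% above untreated pLKO.1 cells in ZFP42, 6.03% above in SOX2 and 13.7% below in LIN28A.

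Partners of these factors gave calls in both directions. Of 37 genes of the primed pluripotent state, 36 were measured. With GSK-J4 alone in NT2/D1-A4, 5 rose and 10 fell, against 13.8% and 6.48% of all genes, and the median was -0.21. The list holds none of the 10 members. DNMT3B, the de novo DNA methyltransferase of pluripotent cells, fell by 0.79 on the log2 scale in NT2/D1-A4 (10.75 to 9.97 log2 CPM, limma adjusted p = 7.4e-11) and by 0.43 in 2102EP-C1 (limma adjusted p = 1.2e-09). UTF1, a chromatin factor of undifferentiated cells, fell by 0.55 in NT2/D1-A4 and by 0.78 after sh6A+6B (limma adjusted p = 9.3e-10). The NODAL antagonists LEFTY1 and LEFTY2 rose by 0.77 and 0.91 in NT2/D1-A4 and by 0.41 and 0.55 in 2102EP-C1, and CRIPTO (TDGF1), the NODAL co-receptor, rose by 0.75 in NT2/D1-A4. SOX3, a close relative of SOX2, rose by 1.1 in NT2/D1-A4 (1.39 to 2.49 log2 CPM) and by 0.82 in 2102EP-C1.

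In 2102EP-C1, 3 rose and 5 fell of the 36 with GSK-J4 alone, against 7.79% and 3.12% of all genes, with a median of -0.15. After sh6A+6B, 3 rose and 3 fell, against 6.34% and 5.74% of all genes, with a median of -0.07. With GSK-J4, MYCN and the NODAL-like ligand GDF3 fell by 0.46 and by 0.45 on the log2 scale, and the forkhead factor FOXD3 fell by 0.76, while FOXD3 rose by 0.56 after sh6A+6B. JARID2, a Polycomb repressive complex 2 subunit, rose by 0.40 after sh6A+6B (8.65 to 9.05 log2 CPM, limma adjusted p = 8.9e-16), and FGF4, a known target of POU5F1 with SOX2, fell by 0.39.

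The other pathway lists hold fewer genes and gave fewer calls by count, which is not a comparison of shares. The shares of all genes that fell were 6.48% in NT2/D1-A4, 3.12% in 2102EP-C1 with GSK-J4 and 5.74% after sh6A+6B. The shares that rose were 13.8%, 7.79% and 6.34%. Of 22 genes of the LIN28 and let-7 axis, 4 fell and none rose in limma with GSK-J4 alone in NT2/D1-A4 (HMGA2 by 0.55, AGO2 by 0.49, HMGA1 by 0.43 and TRIM71 by 0.43), 1 fell in 2102EP-C1 and 0 were called after sh6A+6B with or without voom weights, where 14 passed the adjusted p alone and 16 had an unadjusted p under 0.05. Of 28 measured genes for proteins that bind POU5F1, SOX2 or NANOG, 3 fell in NT2/D1-A4 and 1 in 2102EP-C1, and none of 29 was called after sh6A+6B with or without voom weights, where 21 had an unadjusted p under 0.05. RIF1, a telomere and replication protein, fell by 0.50 in NT2/D1-A4, and ESRRB, an orphan nuclear receptor, by 0.78 in 2102EP-C1. Among genes of the naive state and early embryo, KLF2 and KLF5 rose in both lines with GSK-J4 (KLF2 by 0.82 and 1.56, KLF5 by 0.43 and 0.53), beside their relative KLF4, which did not. KLF2 was near the floor in untreated cells, at -1.02 log2 CPM in NT2/D1-A4 and -1.42 in 2102EP-C1. KLF5 stood at 2.15 and 4.51. Of 13 genes measured on this list, 2 rose and 2 fell in NT2/D1-A4, and of 15 measured, 2 rose and 1 fell in 2102EP-C1 and 1 rose and 3 fell after sh6A+6B, DPPA3 among them by 0.48.

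**Figure D5:**
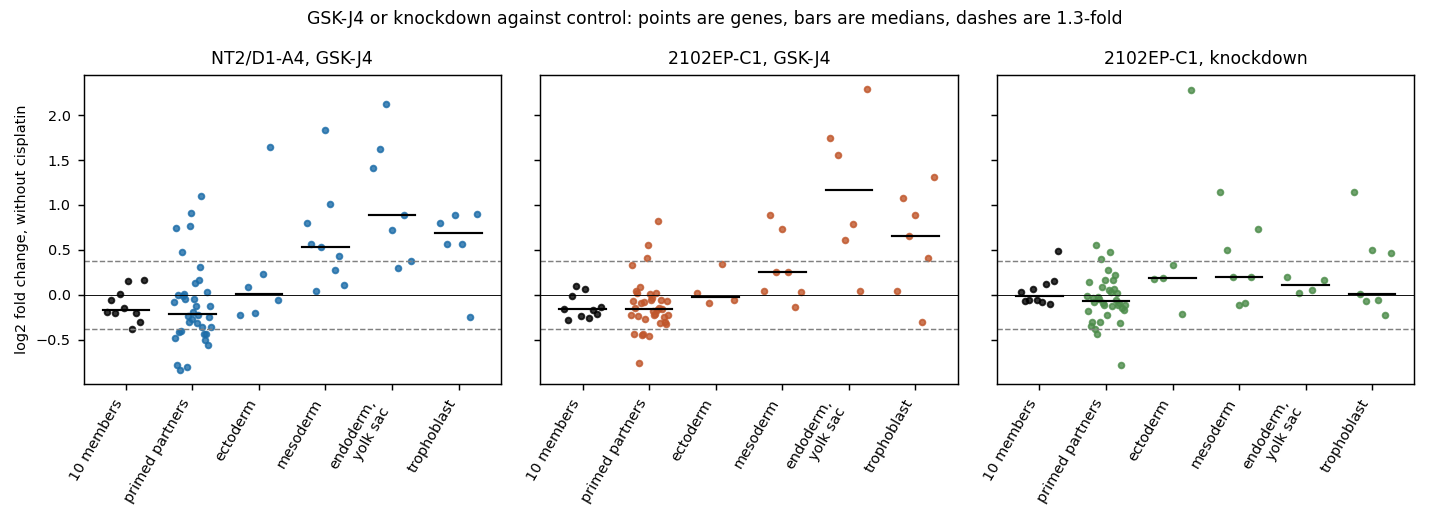
Log2 fold changes after GSK-J4 or sh6A+6B without cisplatin, for the 10 factors and 5 lists, with points for genes, bars for medians and dashed lines at 1.3-fold. All 10 factors lie within 0.49 of 0 in each panel, while points of the trophoblast list reach 0.90 in NT2/D1-A4 and 1.31 in 2102EP-C1 with GSK-J4.

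After GSK-J4 or sh6A+6B without cisplatin, limma called genes of the germ layer and trophoblast lists in the upward direction and none downward, beside shares of all genes called higher of 13.8% in NT2/D1-A4, 7.79% in 2102EP-C1 with GSK-J4 and 6.34% after sh6A+6B. Endoderm and yolk sac genes rose in 5 of 7 measured in NT2/D1-A4 (median 0.89) and 5 of 6 in 2102EP-C1 (median 1.17), and in 0 of 4 after sh6A+6B (median 0.11; limma with or without voom weights), where 2 had an unadjusted p under 0.05. Mesoderm genes rose in 6 of 9, 2 of 7 and 3 of 7, and trophoblast genes in 5 of 6, 5 of 7 and 3 of 7. EOMES and HAND1 are counted in both of these lists. Ectoderm genes rose in 1 of 6, 0 of 4 (limma with or without voom weights, 0 at an unadjusted p under 0.05) and 1 of 5. CER1, a secreted NODAL and BMP antagonist of endoderm, stood at -1.83 log2 CPM in untreated NT2/D1-A4 and rose to -0.21, and in 2102EP-C1 it rose from 2.17 to 3.73. The heart and trophoblast factor HAND1 rose in all 3 experiments, by 0.57, 0.89 and 0.49, and EOMES, a mesoderm and trophoblast factor, by 0.80 in NT2/D1-A4 and 1.15 after sh6A+6B.

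Summed over each list, these genes were a small part of the RNA. The 7 listed endoderm genes summed to 41.8 to 43.8 CPM in untreated NT2/D1-A4 and 55.2 to 56.4 with GSK-J4, and the 6 listed in 2102EP-C1 to 46.3 to 49.5 and 59.1 to 63.6. The 9 listed mesoderm genes of NT2/D1-A4 went from 38.9 to 39.8 CPM to 64.9 to 68.8, and the 7 of 2102EP-C1 from 35.5 to 37.5 to 47.3 to 50.7. The trophoblast sum, of which KRT18 held most, was lower with GSK-J4, at 526.4 to 545.1 CPM against 611.9 to 618.9 in NT2/D1-A4. The 4 embryonal carcinoma markers that are not members (L1TD1, DNMT3B, CRIPTO and TNFRSF8) summed to 3300 to 3380 CPM untreated and 2214 to 2386 with GSK-J4 in NT2/D1-A4, and to 5849 to 6108 and 4683 to 4860 in 2102EP-C1, of which DNMT3B held most in both lines. The part of these sums in the lower levels of SOX2, NANOG, PRDM14, SALL4 and DPPA4 was not tested.

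Seminoma and primordial germ cell genes, a further list of 14, gave no single direction, beside shares of all genes of 13.8% higher and 6.48% lower in NT2/D1-A4, 7.79% and 3.12% in 2102EP-C1 with GSK-J4, and 6.34% and 5.74% after sh6A+6B. With GSK-J4, 2 rose and 2 fell of 8 measured in NT2/D1-A4, and 2 rose and 1 fell of 13 in 2102EP-C1, CXCR4 and PRDM1 rising in both. After sh6A+6B, 1 rose and 4 fell of 12, among them MAGEB2 by 1.06 and DPPA3 by 0.48. DPPA3 alone held 860.3 CPM in untreated 2102EP-C1 and 975.2 CPM in pLKO.1 cells, most of the list's sum there. That sum was 987.4 to 1066 CPM with GSK-J4 in 2102EP-C1 against 1138 to 1160 untreated, and 978.9 to 1024 with sh6A+6B against 1254 to 1285.

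Patterns across the 9 treated arms were compared as the root mean square difference in log2 fold change, over 11465 genes listed in all 3 tables. NANOGP8 came nearest to NANOG (0.044), with which it shares reads, ahead of HLTF (0.044) and LBR (0.049). TRPC4AP, AKR1B1 and GLYR1 were nearest to POU5F1 (0.028, 0.034 and 0.038). RIC8B, NAT10 and SRPRA were nearest to SOX2 (0.051, 0.053 and 0.054). Within 0.1 of each member lay 904 genes for POU5F1, 460 for NANOG and 151 for SOX2, so such likeness is common, and the fold changes within an experiment share their untreated libraries.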

How the data were processed

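Total RNA of 36 libraries was prepared with a stranded mRNA kit and sequenced on a HiSeq instrument. Per the study's methods and the submitters' processing notes, reads were trimmed, aligned with STAR to GRCh38.p14, counted per gene with featureCounts, filtered at 0.5 CPM in 2 samples, TMM-normalized and tested with limma at 1.3-fold and FDR 0.05. Versions and the strand setting of the counting are not given in the sources used here. The deposited values are log2 CPM at TMM-scaled library sizes with a prior count of 3, 1 column per library and 1 table per experiment. That unit was tested on the files: every value under 50 reads (45077, 44309 and 12849 values) came out whole within 0.05. The step per read and the added constant were fitted first, so whole reads alone do not test the prior. With a prior of 3, the mean recovered library size over the size that the constant implies was 1 in each table. In the 12 libraries used here, 467 of 16431, 543 of 17035 and 186 of 16459 listed genes were under the stated filter.

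Groups came from the sample labels. limma 3.58.1 (R 4.3.3, trend) was fitted to the deposited log2 CPM of all 12 libraries of a table by group means, without a block, two-sided, with Benjamini-Hochberg adjustment over all genes of the table. The comparisons were cisplatin, GSK-J4 or sh6A+6B with and without the other, and the interaction. Members, lists and tests were chosen with earlier results of these data known. Besides the members, the text names up to 4 rises and 4 falls per list and experiment, and the 3 genes nearest to POU5F1, SOX2 and NANOG over genes with a mean log2 CPM of at least 1. Gene lengths and positions are from GENCODE 44 and promoter windows from RefSeq. The fits were tested on simulated data. Alternatives were voom on recovered reads, library size only, a prior count of 0.5, a mean log2 CPM of at least 1, other fold limits, only the libraries compared, a replicate block, NANOG summed with NANOGP8, and each library left out. Where p-values of the main fits are given, they rest on the spread between the 3 libraries within arms. That spread was pooled over all 12 libraries of a table and moderated by limma with the trend over all genes. Depth and its effect on precision are given with the results; counts of reads cover counting error only.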

Additional observations from a re-analysis of the deposited data

Results flagged for a closer look

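In the knockdown experiment on 2102EP-C1, the effect of cisplatin differed between pLKO.1 and sh6A+6B cells in 3 members by the limma interaction test, each by less than 1.3-fold. POU5F1 had an interaction of 0.09 on the log2 scale (adjusted p = 0.0058): it was 9.36 log2 CPM in pLKO.1 cells and 9.29 after cisplatin, and 9.28 and 9.29 in sh6A+6B cells. DPPA4 had an interaction of 0.12 (adjusted p = 0.0024), with means of 9.64 and 9.58 against 9.67 and 9.73. LIN28B had an interaction of -0.10 (adjusted p = 0.011), with means of 8.84 and 8.88 against 8.90 and 8.85. Each mean is over 3 libraries. The 3 of 10 members past the adjusted p are not above the share of all genes in this test, 35.1%. The median absolute interaction was 0.036 among the members and 0.13 among all genes, so these interactions are not particular to the members.

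In 2102EP-C1 without cisplatin, 2 members stood on opposite sides of their controls with GSK-J4 and with sh6A+6B, in every library of these arms. SOX2 differed by -0.22 with GSK-J4 and by 0.16 with sh6A+6B, and PRDM14 by -0.26 and 0.12. The experiments have their own controls and were normalized in separate tables, so these differences between experiments were not tested.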

How the results depend on the processing

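Of 150 member differences, 71 passed the adjusted p in limma. All 71 kept their sign under every alternative, and 53 also kept the adjusted p under all of them. For cisplatin within sh6A+6B cells, the limma adjusted p reached 0.067 for NANOG without the first sh6A+6B library, 0.14 for DPPA4 without the second, 0.15 for SALL4 without the third and 0.22 for LIN28B without the second cisplatin-treated sh6A+6B library, from lowest values of 0.0061, 0.0015, 0.0019 and 0.0044. For cisplatin in pLKO.1 cells it reached 0.14 for DPPA4 without the third cisplatin library, and for GSK-J4 within cisplatin in NT2/D1-A4 0.14 for SALL4 with library size only. With no fold limit, the members called in NT2/D1-A4 numbered 3 for cisplatin alone, 8 for GSK-J4 alone, 8 for GSK-J4 within cisplatin and 1 for cisplatin within GSK-J4. In 2102EP-C1 with GSK-J4 the same counts were 2, 7, 9 and 4, and in the knockdown experiment 5, 9, 6 and 6, with 3 for the interaction. With a 1.5-fold limit, 0 were called for GSK-J4 alone and within cisplatin in NT2/D1-A4, and 0 for sh6A+6B alone and within cisplatin. With library size only, 0 were called for GSK-J4 alone in NT2/D1-A4. For GSK-J4 within cisplatin in 2102EP-C1, 0 were called with a mean log2 CPM of at least 1, which leaves ZFP42 out, and 0 with only the libraries compared. With each library left out in turn, the counts ran from 0 to 1 for GSK-J4 alone and within cisplatin in NT2/D1-A4 (0 without the third GSK-J4 and the third combination library), from 0 to 1 for GSK-J4 within cisplatin in 2102EP-C1, from 1 to 1 for sh6A+6B alone and within cisplatin, and from 0 to 0 elsewhere. Except as reported, the causes were not tested. Same-numbered libraries did not deviate together as a rule: the median correlation of their deviations was -0.016, -0.0027 and -0.0029 in the 3 experiments, and 5, 6 and 7 of 18 correlated best with their own number. Some pairs did, with 3, 1 and 5 of 18 above 0.1. The highest reached 0.28, 0.10 and 0.31, against 0.20, 0.12 and 0.17 among pairs of different number. The replicate block left the number of members called at 1 for GSK-J4 alone and within cisplatin in NT2/D1-A4, 1 for GSK-J4 within cisplatin in 2102EP-C1 and 1 for sh6A+6B alone and within cisplatin, and at 0 elsewhere. By adjusted p alone, the block moved the count for cisplatin within GSK-J4 in 2102EP-C1 from 4 to 2, for sh6A+6B within cisplatin from 6 to 8 and for cisplatin within sh6A+6B from 6 to 7, and left the others as they were. ZFP42 is measured least precisely in 2102EP-C1, where its low level left 6 to 26 reads per library in the GSK-J4 experiment.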
